A study of Saccharomyces cerevisiae with 15 samples.

Results

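The genes described here are the nuclear genes of the yeast respiratory chain and ATP synthase that carry the names SDH, QCR, COX or ATP followed by a number. They were found among the reading frames with a systematic name that starts with Y by their standard names in the Saccharomyces Genome Database, which gave 54 of the 6692 genes counted. Of these, 34 encode subunits and 20 encode assembly or expression factors. Complex II has 5 of the subunit genes, complex III 6, complex IV 10 and ATP synthase 13, and the 20 factors serve complex II (4 genes), complex IV (10 genes) and ATP synthase (6 genes). RNA was sequenced from 15 cultures of Saccharomyces cerevisiae strain L40 (mat-a, with his{delta}200trp1-901, with mutant leu2 and ade2 genes, and with the reporters LYS2::(lexAop)4- HIS3 and URA3::(lexAop)8-lacZ, and Gal4), 3 biological replicates in each of 5 groups. The Curcumin group carried the empty vector pL220 and received 200 µM Curcumin, a plant compound reported to inhibit p300/CBP acetyltransferases, and the CPTH2 group carried the same vector and received 400 µM CPTH2, a synthetic inhibitor of the acetyltransferase Gcn5. The scFv-58F group expressed from pL220 an intracellular antibody domain (intrabody) that binds histone H3 acetylated at lysine 9, the scFv-645 group expressed an intrabody against neuroligin-2, a protein that yeast does not have, and the DMSO group carried the empty vector with neither compound nor intrabody. All 5 groups grew for 1 h in SD-L medium with 0.4% DMSO, so that the solvent was shared and the intrabody strains differed from the DMSO cultures in their plasmid.

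In mitochondria, complex II (succinate dehydrogenase) passes electrons from succinate to ubiquinone, complex III passes them to cytochrome c, and complex IV (cytochrome c oxidase) passes them to oxygen. ATP synthase uses the proton gradient that complexes III and IV build, and consists of a catalytic F1 head joined by stalks to a membrane part. Baker's yeast has no complex I and uses single-protein NADH dehydrogenases. Nuclear and mitochondrial genomes both encode parts of complexes III and IV and of ATP synthase, whereas all complex II subunits are nuclear, and many of the nuclear genes are activated in respiring cells by the CCAAT-binding HAP complex, of which Hap4 is the regulated subunit.

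Between 9062694 and 18878167 reads were counted on genes per sample (median 12204400). All 54 genes passed the filter on low counts, and the lowest count of any of them in any sample was 58. Replicates differed more in Curcumin than elsewhere: the chi-square per degree of freedom between replicate pairs was 89.8 to 546 in Curcumin, 33.3 to 64.1 in CPTH2, 4.47 to 11.7 in scFv-58F, 8.26 to 53.5 in scFv-645 and 8.12 to 24.4 in DMSO, so no 2 replicates of a group were alike within counting noise. The mating-type a genes MFA1, MFA2, STE2 and BAR1 together had 2256 to 12498 counts per sample, against 127 to 612 for the alpha genes MF(ALPHA)1, MF(ALPHA)2 and STE3, as the mat-a label has it. Levels are given as CPM (read counts scaled by library depth) after TMM scaling of the 15 samples. In a bulk culture a lower level in every cell and a lower number of cells that express a gene cannot be told apart. A gene is called changed at a Benjamini-Hochberg adjusted p below 0.05 over the 6588 genes tested with edgeR's quasi-likelihood test and a fold change of at least 1.5. COX20, ATP1 and ATP14 overlap another annotated gene, by 278, 251 and 32 bases, and counting ignored strand, so reads of the overlapping genes cannot be told apart there.

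Per kilobase, most subunit genes were more abundant than the genes of assembly factors. In DMSO cultures QCR7, which encodes a small subunit of complex III, was the highest at 1937 ± 90.9 CPM per kb (SD, n = 3), followed by COX9 at 1580.3 ± 27.9 and ATP15, the epsilon subunit of F1, at 1338 ± 101. SDH1, the flavoprotein of complex II, had 157 ± 19.2 CPM per kb and was the lowest subunit gene but for its minor paralogue SDH9, at 3.61 ± 0.70, the lowest of all 54. Among the assembly factors COX14, which takes part in the control of Cox1 synthesis, was the highest at 294 ± 22.3, and COX10, the enzyme of the first step of heme A synthesis, was the lowest at 12.2 ± 0.65 CPM per kb. Together the 54 genes took 0.893%, 0.697% and 0.822% of the counts in Curcumin, 1.66%, 1.88% and 1.63% in CPTH2, 1.42%, 1.26% and 1.23% in scFv-58F, 1.01%, 1.06% and 1.01% in scFv-645, and 1.09%, 1.03% and 1.14% in DMSO. The Curcumin samples lay below all DMSO samples in this share and the CPTH2 and scFv-58F samples above them, while scFv-645 overlapped DMSO.

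The sequence upstream of these genes was searched for CCAAT, the core bound by the HAP complex, on either strand (ATTGG on the other). In the 300 bases before the start codon, 31 of the 34 subunit genes (91.2%) held at least 1 match, against 10 of the 20 assembly genes (50%) and 41.7% of the 5941 protein-coding genes tested. All 6 complex III and all 13 ATP synthase subunit genes held it, as did 8 of 10 complex IV and 4 of 5 complex II subunit genes. The longer form TNATTGGT, which contains the same core, stood upstream of 13 subunit genes (38.2%), 2 assembly genes (10%) and 5.22% of all genes tested, but of none of the 5 complex II subunit genes. COX4, COX26 and SDH9 were the subunit genes without a CCAAT in this window. A match describes the letters only. The sequences of 6 genes are shown because the results below turn on them: the isoform pair COX5A and COX5B, COX7 (raised in scFv-58F), ATP1 and SDH2 (raised in CPTH2) and ATP17 (the lowest ATP synthase gene in Curcumin relative to DMSO). Each line runs 5′ to 3′ from 300 to 101 bases before the start codon, read from the RefSeq R64 genome (the sacCer3 build of the counts), with CCAAT or ATTGG in capitals. The windows are chrXIV:531425-531624 (plus strand) for COX5A, chrIX:154922-155121 (plus) for COX5B, chrXIII:779228-779427 (minus) for COX7, chrII:36753-36952 (plus) for ATP1, chrXII:54032-54231 (minus) for SDH2 and chrIV:1228311-1228510 (plus) for ATP17.
COX5A: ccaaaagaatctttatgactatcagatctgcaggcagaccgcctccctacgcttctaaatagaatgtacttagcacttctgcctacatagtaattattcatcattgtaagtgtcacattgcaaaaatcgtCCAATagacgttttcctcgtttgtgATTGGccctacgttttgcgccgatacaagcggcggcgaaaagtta
COX5B: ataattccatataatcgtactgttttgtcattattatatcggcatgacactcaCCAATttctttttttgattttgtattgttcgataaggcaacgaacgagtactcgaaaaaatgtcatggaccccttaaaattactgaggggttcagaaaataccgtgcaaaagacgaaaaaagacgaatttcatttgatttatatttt
COX7: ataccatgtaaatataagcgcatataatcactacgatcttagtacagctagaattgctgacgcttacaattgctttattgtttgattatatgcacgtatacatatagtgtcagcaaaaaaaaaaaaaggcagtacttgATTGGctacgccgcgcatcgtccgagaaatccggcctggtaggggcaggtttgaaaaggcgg
ATP1: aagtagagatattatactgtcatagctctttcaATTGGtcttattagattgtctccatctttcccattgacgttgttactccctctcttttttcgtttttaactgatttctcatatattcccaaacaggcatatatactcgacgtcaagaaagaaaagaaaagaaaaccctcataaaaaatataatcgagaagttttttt
SDH2: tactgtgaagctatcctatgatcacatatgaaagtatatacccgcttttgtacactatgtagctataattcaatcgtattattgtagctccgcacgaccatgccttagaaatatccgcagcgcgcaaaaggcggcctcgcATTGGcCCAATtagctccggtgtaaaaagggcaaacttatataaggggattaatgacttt
ATP17: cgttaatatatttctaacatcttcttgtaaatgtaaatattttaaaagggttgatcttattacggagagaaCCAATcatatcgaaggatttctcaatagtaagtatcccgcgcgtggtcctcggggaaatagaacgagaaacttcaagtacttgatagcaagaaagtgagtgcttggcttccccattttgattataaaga
The matches of COX5A started 170 and 145 bases before its start codon and that of COX5B shown here 247 bases before, with a further COX5B match at 72 bases outside the printed stretch. SDH2 held a pair of matches, at 160 and 154 bases, and COX7, ATP1 and ATP17 held 1 match each, at 162, 267 and 229 bases.

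**Figure D1:**
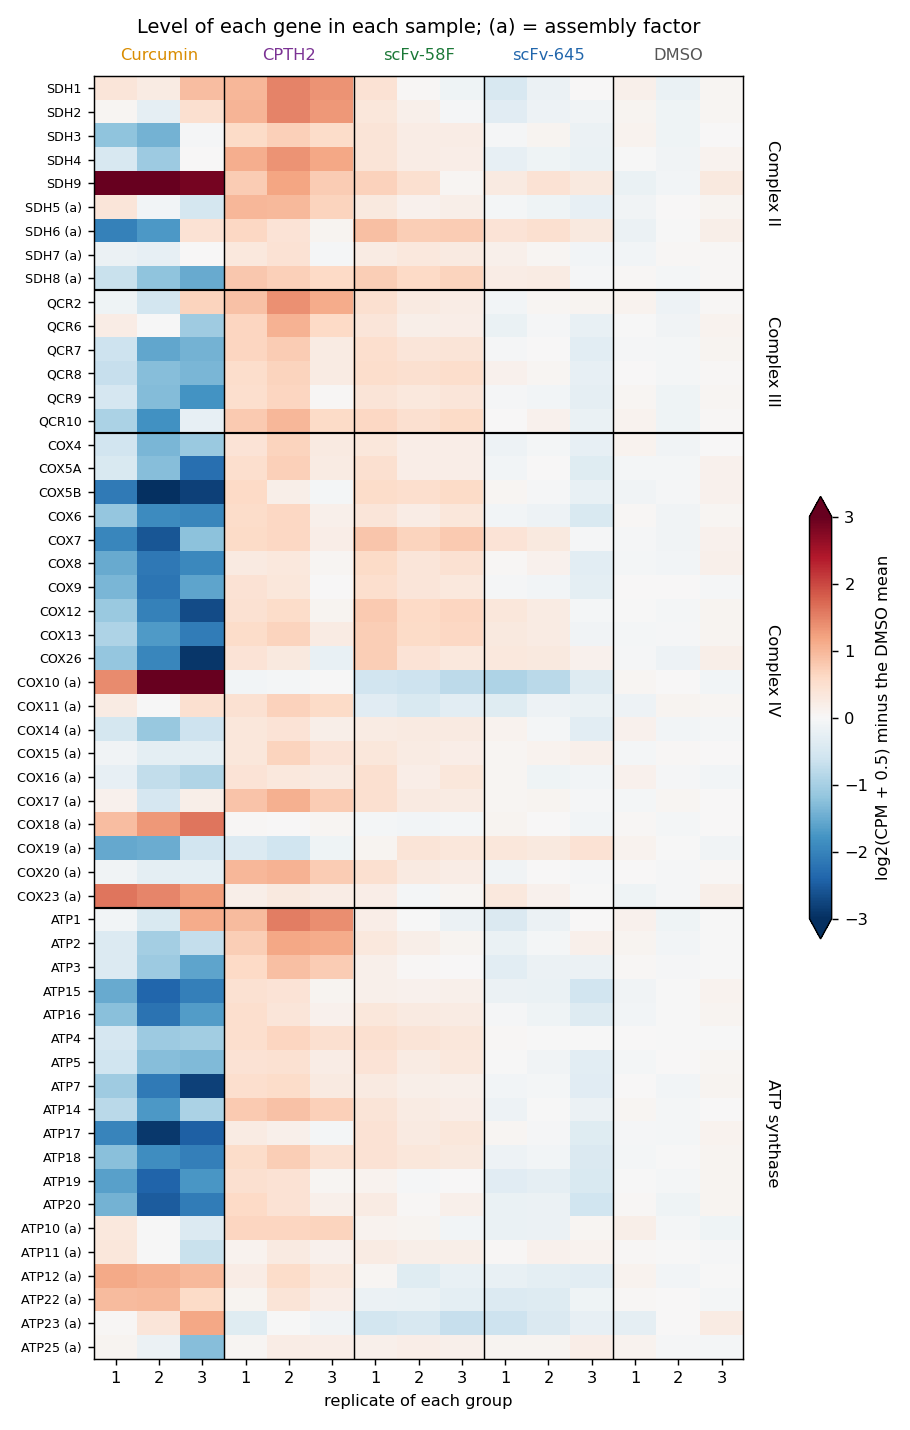
Level of each of the 54 genes (rows, grouped by complex, assembly factors marked a) in each of the 15 samples (columns), as log2(CPM + 0.5) minus the mean of the DMSO samples, from blue (lower) to red (higher). Most subunit genes of complex IV and ATP synthase are blue in the Curcumin samples and pale red in CPTH2 and scFv-58F. In Curcumin SDH9 is deep red, and COX10 is deep red in replicates 2 and 3 and paler in replicate 1.

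In Curcumin most subunit genes of complex IV and ATP synthase were lower than in DMSO, and those of complex II had no common direction. Of the 54 genes, 28 were called lower and 6 higher in Curcumin than in DMSO, beside 24.7% of all tested genes called lower and 27.9% called higher. The median log2 fold change was -0.82 over the 54 genes, against 0.03 over all tested genes. Among subunit genes 24 of 34 were lower and 1 was higher (median -1.14), and among assembly genes 4 of 20 were lower and 5 higher (median -0.06). By complex, 9 of 10 complex IV subunit genes were called lower (median -1.76), 12 of 13 ATP synthase subunit genes (median -1.68), 3 of 6 complex III genes (median -1.0) and none of the 5 complex II subunit genes, of which SDH9 was called higher (median 0.10). For 26 subunit genes every Curcumin sample lay below every DMSO sample, which held for 34.2% of all tested genes.

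COX5B, the isoform of complex IV subunit 5 that is favoured when oxygen is low, fell the most. It had 66.8, 31.0 and 41.4 CPM in Curcumin, against 274, 287 and 322 CPM in DMSO, a log2 fold change of -2.68 ± 0.31 (SE, adjusted p = 0.00106). COX5A, the aerobic isoform, had 336, 188 and 95.3 CPM in Curcumin, against 440.2, 438 and 504 CPM in DMSO. All 3 Curcumin samples lay below the DMSO samples, but they differed among themselves by more than the DMSO samples did, and COX5A was not called (-1.18 ± 0.43, adjusted p = 0.0528). COX5A was called with DESeq2 (-1.17), with all groups in 1 model (-1.16), with a replicate block (-1.35), and without Curcumin replicate 1 (-1.70) or replicate 3 (-0.82). Of the CPM per kb of both isoforms, COX5B took 16.8%, 14.3% and 30.6% in Curcumin and 38.6%, 39.9% and 39.3% in DMSO, a difference of -18.7 percentage points that separated the groups (exact permutation test, two-sided p = 0.1, the smallest that 3 against 3 samples allow). The reading frames of the 2 isoforms share no stretch of 51 bases and no identical run longer than 12 bases.

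Apart from COX5A, the other complex IV subunit genes were called lower as well. COX7 had 37.5, 24.3 and 61.9 CPM in Curcumin, against 144, 136 and 161 CPM in DMSO (log2 fold change -1.84 ± 0.34, adjusted p = 0.00454). COX12 had 117, 61.7 and 38.9 CPM in Curcumin, against 252, 242 and 268 CPM in DMSO (-1.83 ± 0.39, adjusted p = 0.00785). COX26, a small subunit seen in respiratory supercomplexes, had 52.0, 29.9 and 15.1 CPM in Curcumin, against 114, 106 and 133 CPM in DMSO (-1.88 ± 0.42, adjusted p = 0.00929). In none of these did the groups overlap. COX8 (-1.87), COX9 (-1.69), COX6 (-1.64), COX13 (-1.51) and COX4 (-1.01) completed the list, COX4 with the smallest change of the 10 and without a call once gene length was corrected for (-0.58).

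In ATP synthase, ATP17, which encodes subunit f of the membrane part, had 54.2, 28.6 and 39.3 CPM in Curcumin, against 209.5, 208 and 230.4 CPM in DMSO (log2 fold change -2.42 ± 0.26, adjusted p = 0.000877). The further genes of the stalks and membrane part were all called lower, between -1.97 for ATP20 (subunit g) and -0.87 for ATP4 (subunit b), and included ATP19 (-1.92), ATP7 (-1.85), ATP18 (-1.71), ATP14 (-1.13) and ATP5 (-1.04). Of these ATP7 lost its call without Curcumin replicate 2 (-1.72), ATP5 with gene length corrected for (-0.57), and ATP4 with gene length corrected for (-0.43), with library size alone as scaling (-0.52) and without each of the 3 DMSO replicates (-0.87 each). The F1 head was uneven. ATP15 (-1.96 ± 0.25), ATP16 (-1.68 ± 0.27), ATP3 (-0.96 ± 0.30) and ATP2, the catalytic beta subunit (-0.71 ± 0.23), were called lower, with adjusted p of 0.00148, 0.0028, 0.0328 and 0.0355. ATP1, the alpha subunit, had 318, 245 and 728 CPM in Curcumin, against 369, 309 and 330.5 CPM in DMSO, and was not called (0.34 ± 0.41, adjusted p = 0.501). Its Curcumin sample from replicate 3 stood above all DMSO samples and without it the log2 fold change was -0.26. The ATP3 call was lost without Curcumin replicate 2 (-0.89), without each of the DMSO replicates (-0.95 to -0.97), with library size alone (-0.61) and with gene length corrected for (-0.68). The ATP2 call was lost without Curcumin replicate 2 (-0.57), without any of DMSO replicates 1 (-0.68), 2 (-0.74) and 3 (-0.71), with library size alone as scaling (-0.36) and with a replicate block (-0.73).

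Complex III lay between. QCR7 (483, 253 and 276 CPM in Curcumin, against 729, 718 and 784 CPM in DMSO), QCR8 and QCR9 were called lower at -1.16 ± 0.29, -1.11 ± 0.22 and -1.13 ± 0.32 (adjusted p = 0.0144, 0.00652 and 0.0234). QCR10 had a log2 fold change of -0.89 ± 0.37 with no overlap of the groups and was not called (adjusted p = 0.0796), although it was with DESeq2 (-0.88), with all groups in 1 model (-0.87), with a replicate block (-1.02) and without Curcumin replicate 3 (-1.33). QCR2, a core protein, had 332, 247 and 581 CPM in Curcumin, against 391, 331 and 375 CPM in DMSO, and QCR6, an acidic subunit near cytochrome c1, had 535, 451 and 218 CPM in Curcumin, against 457, 424 and 497 CPM in DMSO. In both genes the Curcumin samples surrounded the DMSO samples (0.07 ± 0.33 and -0.21 ± 0.34, adjusted p = 0.872 and 0.618). The QCR9 call was lost without Curcumin replicate 2 (-1.04), without each of DMSO replicates 1 (-1.11), 2 (-1.18) and 3 (-1.10), with library size alone (-0.78) and with gene length corrected for (-0.86). The QCR7 call was lost without Curcumin replicate 2 (-0.99) and without DMSO replicate 2 (-1.18) or 3 (-1.11).

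Among complex II subunit genes, SDH1 had 389, 354 and 575 CPM in Curcumin, against 332, 260.5 and 312 CPM in DMSO, and all 3 Curcumin samples lay above the DMSO samples without a call (0.53 ± 0.25, adjusted p = 0.108). With library size alone as scaling SDH1 was called, at 0.87. SDH2, the iron-sulfur subunit, had 171, 135 and 229 CPM in Curcumin, against 173, 151 and 169.8 CPM in DMSO (0.10 ± 0.23, adjusted p = 0.722). The membrane anchor SDH3 had 112, 96.2 and 253 CPM in Curcumin, against 279, 235 and 263 CPM in DMSO, and was not called (-0.77). Curcumin replicate 3 lay within the DMSO range and the other two samples below it, and without that replicate SDH3 was called lower (-1.32), as it was with all 5 groups in a single model (-0.75). The other anchor, SDH4 (-0.48), was called lower only without Curcumin replicate 3 (-0.77) among the alternatives run. The median of the 5 complex II subunit genes, 0.10, was -0.11 without that replicate and 0.45 with library size alone as scaling. SDH9 stood apart, with 97.4, 105 and 53.0 CPM in Curcumin, against 5.86, 6.39 and 8.39 CPM in DMSO (3.61 ± 0.32, adjusted p = 0.000658). Of the CPM per kb of SDH1 and SDH9 together, SDH9 took 20.2%, 23.0% and 8.51% in Curcumin and 1.75%, 2.42% and 2.64% in DMSO, and the groups did not overlap (exact permutation test, two-sided p = 0.1, the smallest possible here). The 2 genes share no stretch of 51 bases and no identical run longer than 23 bases. Of the complex II assembly factors SDH8, a chaperone of free Sdh1, was called lower (-1.11 ± 0.23, adjusted p = 0.00745). SDH6, a factor for the iron-sulfur subunit, had 4.94, 6.15 and 29.4 CPM in Curcumin, against 19.2, 21.5 and 24.4 CPM in DMSO, where Curcumin replicate 3 went against the other two (adjusted p = 0.393), and without it SDH6 was called lower (-1.98).

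The assembly genes that rose in Curcumin belong to several steps. COX10 had 46.3, 149.9 and 418 CPM in Curcumin, against 17.8, 17.2 and 16.0 CPM in DMSO (log2 fold change 3.58 ± 0.76, adjusted p = 0.00774). Without Curcumin replicate 3 the log2 fold change was 2.53. The 3 Curcumin samples differed widely from each other, with all of them above all DMSO samples. COX10 (chrXVI:224353-225741, minus strand) starts 427 bases downstream of OYE3, a gene for an NADPH oxidoreductase on the same strand. OYE3 had 1045, 1678 and 1418 CPM in Curcumin, against 15.4, 21.6 and 16.9 CPM in DMSO (6.25 ± 0.34, adjusted p = 0.0006), so both neighbours rose together, although the Curcumin sample with the most COX10 was not the one with the most OYE3. Whether reads from OYE3 transcripts contribute to the COX10 count was not tested. In CPTH2, where OYE3 had 124, 244 and 134 CPM, COX10 had 16.0, 16.3 and 16.7 CPM and was not called against DMSO (-0.06 ± 0.09, adjusted p = 0.59). COX23 and COX18, factors for copper supply and for Cox2 insertion, rose by 1.46 ± 0.17 and 1.32 ± 0.20 on the log2 scale (adjusted p = 0.00121 and 0.00254), and ATP12, the chaperone of the alpha subunit, and ATP22, a translation factor for mitochondrial ATP6, rose by 1.06 ± 0.13 and 0.83 ± 0.16 (adjusted p = 0.00143 and 0.00619), ATP22 without a call once gene length was corrected for (0.46). The nearest genes upstream of COX18, COX23 and ATP12 (SPT4, DMA1 and PFD1) had log2 fold changes of -0.45, 0.41 and -1.35, and SBE2, upstream of ATP22, had 0.80. Of these SPT4 is on the same strand as its neighbour, and DMA1, PFD1 and SBE2 are on the opposite strand. COX19, another factor in copper supply, was called lower (-1.17 ± 0.29, adjusted p = 0.0147), a call lost without Curcumin replicate 2 (-1.01) or DMSO replicate 1 (-1.13). COX14 (-0.76) and COX16 (-0.63) were called lower too. The COX14 call was lost without DMSO replicate 1 (-0.71), with library size alone (-0.42) and with gene length corrected for (-0.50). That of COX16 was lost under both settings (-0.29 and -0.23) and without any of 5 of the 6 samples (-0.49 to -0.67).

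**Figure D2:**
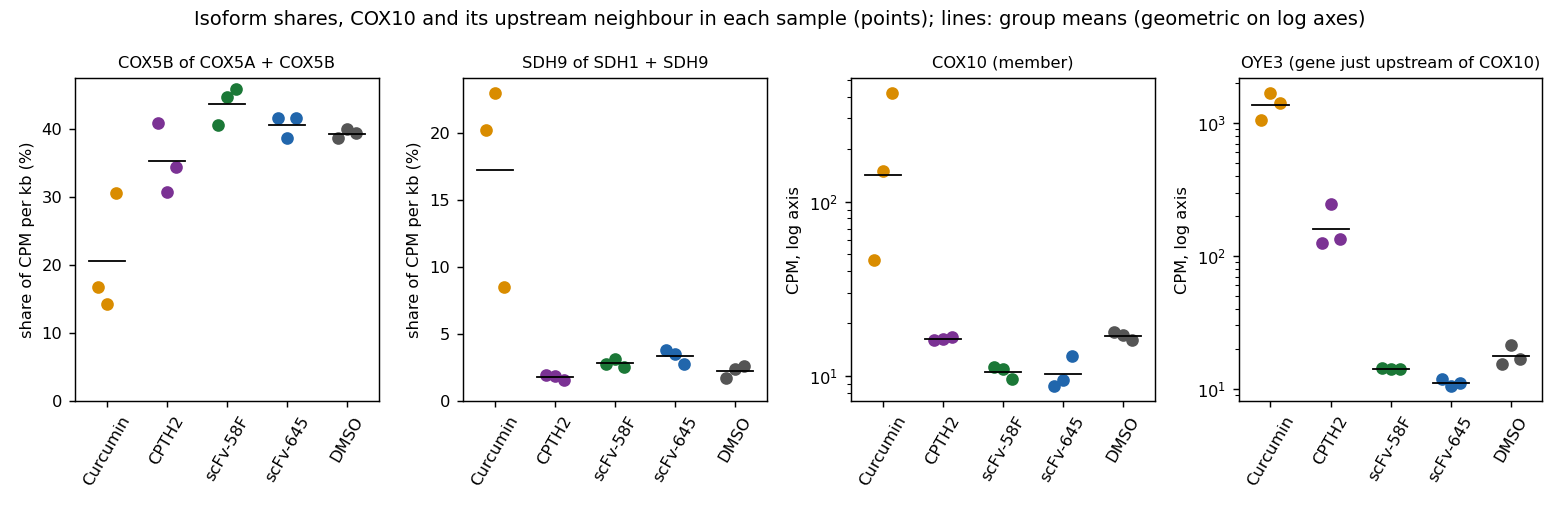
From left, the share of COX5B in COX5A and COX5B and of SDH9 in SDH1 and SDH9 (percent of CPM per kb, linear axes), and CPM of COX10 and of its upstream neighbour OYE3 (log axes), with a point per sample and a line at the group mean. In Curcumin the COX5B share is 14.3% to 30.6%, below all other samples, the SDH9 share is 8.51% to 23.0%, above all other samples, and both COX10 and OYE3 lie above DMSO.

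Scaling mattered in Curcumin. With library size alone in place of TMM the median log2 fold change of all tested genes was 0.38 and that of the 54 genes -0.48, against 0.03 and -0.82 with TMM. Under it 22 of the 54 genes were called lower and 8 higher, beside 16% and 38.3% of all tested genes, and 8 uncalled genes changed sign (ATP10, ATP11, COX15, COX17, COX20, QCR6, SDH5 and SDH7) but no called one. The difference between complexes within a sample does not depend on scaling. Relative to DMSO, the mean log2 level of the complex IV subunit genes minus that of the complex II subunit genes was -1.75, -2.31 and -2.93 in Curcumin, against -0.04, 0.05 and -0.01 in DMSO. With SDH9 left out of complex II, a choice made after its values were seen, the difference was -0.92, -1.40 and -2.42 in Curcumin, against -0.10, 0.06 and 0.03 in DMSO. The complex IV minus complex III difference was -0.79, -0.95 and -1.19 in Curcumin, against -0.06, 0.02 and 0.04 in DMSO. Complex IV and ATP synthase differed less, by -0.24, -0.27 and -0.58 in Curcumin, against -0.02, -0.02 and 0.04 in DMSO. These differences, with and without SDH9, kept the same sign in the 3 Curcumin samples and lay outside the DMSO range.

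**Figure D3:**
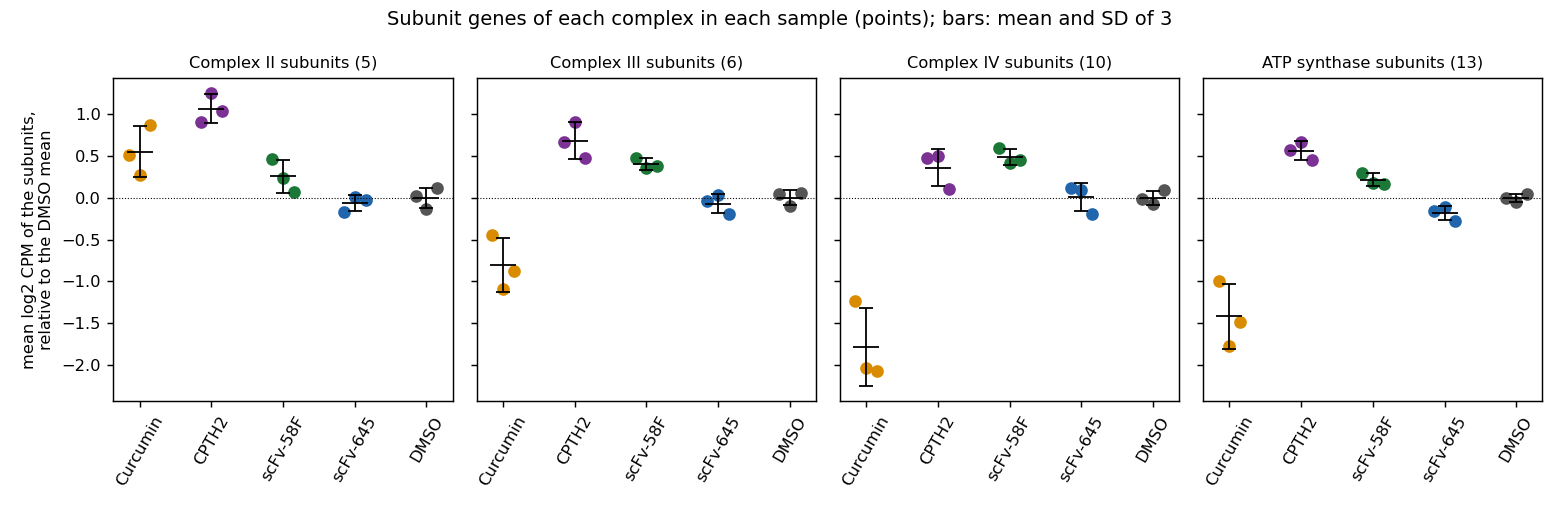
Mean log2 CPM of the subunit genes of each complex in each sample, relative to the DMSO mean (points), with the mean and SD of the 3 samples of a group (black). In Curcumin the complex IV points lie at -1.24 to -2.07 and those of ATP synthase at -1.0 to -1.77, whereas in CPTH2 complex II lies highest, at 0.90 to 1.25, and in scFv-58F complex IV does, at 0.41 to 0.59.

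In CPTH2 subunit genes of complex II, complex III and ATP synthase were called higher than in DMSO, and those of complex II had the largest median. Of the 54 genes 18 were called higher and 0 lower in CPTH2 than in DMSO, beside 14.1% of all tested genes called higher and 16.9% called lower. At an unadjusted p under 0.05, 1 of the 54 genes was lower (COX19, -0.38 ± 0.12), a threshold at which the share of all tested genes was not computed. With DESeq2 0 were called lower, beside 1068 of the 6588 tested genes. The median log2 fold change was 0.45, against -0.03 over all tested genes, all 34 subunit genes had a positive value, and for 26 of them every CPTH2 sample lay above every DMSO sample, which held for 34.6% of all tested genes. All 5 complex II subunit genes rose (median 1.21), as did 3 of 6 complex III genes (median 0.67) and 5 of 13 ATP synthase subunit genes (median 0.44), while none of the 10 complex IV subunit genes passed the fold change of 1.5 (median 0.42, with 6 at an adjusted p below 0.05). At an adjusted p below 0.05 alone, 41 of the 54 genes were higher and 1 lower, beside 30.9% and 33.1% of all tested genes.

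SDH1 had 603, 838 and 771 CPM in CPTH2, against 332, 260.5 and 312 CPM in DMSO, a log2 fold change of 1.29 ± 0.15 (adjusted p = 9.69e-05). SDH2 had 334, 458 and 408 CPM in CPTH2, against 173, 151 and 169.8 CPM in DMSO (1.28 ± 0.13, adjusted p = 5.31e-05). SDH4 had 393, 469.8 and 407 CPM in CPTH2, against 182, 170.4 and 198 CPM in DMSO (1.21 ± 0.11, adjusted p = 3.22e-05). The groups were well apart in all 3 genes, and CPTH2 replicate 1 was the lowest of its group in each. SDH9 (0.95 ± 0.17, adjusted p = 0.00118) and SDH3 (0.62 ± 0.10, adjusted p = 0.000696) rose less, and the SDH3 call was lost without CPTH2 replicate 2 (0.57) or DMSO replicate 2 (0.55) and with all 5 groups in a single model (0.62). SDH5, which promotes flavin attachment to Sdh1, and SDH8 rose by 0.89 ± 0.10 and 0.72 ± 0.08.

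In ATP synthase the largest rises were those of the alpha and beta subunits. ATP1 had 648, 973 and 888 CPM in CPTH2, against 369, 309 and 330.5 CPM in DMSO (log2 fold change 1.32 ± 0.16, adjusted p = 0.000118), and ATP2 had 1619.6, 2160.3 and 2085 CPM in CPTH2, against 1019, 913 and 961 CPM in DMSO (1.02 ± 0.13, adjusted p = 0.000174). ATP14 (0.80 ± 0.09), ATP3 (0.75 ± 0.10) and ATP18 (0.59 ± 0.10) were called as well, ATP18 just past the fold change of 1.5 and no longer without CPTH2 replicate 2 (0.51) or DMSO replicates 1 (0.57) or 2 (0.58). ATP17, which had fallen the furthest of the ATP synthase genes in Curcumin, had 257, 242 and 208 CPM in CPTH2, against 209.5, 208 and 230.4 CPM in DMSO, and the groups overlapped (0.13 ± 0.10, adjusted p = 0.306). In complex III QCR2 rose with 668, 946 and 784 CPM in CPTH2, against 391, 331 and 375 CPM in DMSO (1.13 ± 0.14, adjusted p = 0.000151), and QCR10 and QCR6 rose by 0.79 ± 0.12 and 0.77 ± 0.14.

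In complex IV, COX5A had 650.4, 756 and 548 CPM in CPTH2, against 440.2, 438 and 504 CPM in DMSO, a log2 fold change of 0.50 ± 0.13 (adjusted p = 0.00881) below the fold cutoff. COX5B had 443, 330.3 and 284 CPM in CPTH2, against 274, 287 and 322 CPM in DMSO, with overlapping groups (0.26 ± 0.16, adjusted p = 0.174). COX4 had 390.5, 464 and 351 CPM in CPTH2, against 316, 270.3 and 294 CPM in DMSO (0.45 ± 0.12, adjusted p = 0.00942). With gene length corrected for, COX5A (0.67), COX4 (0.62), COX6 (0.61) and COX13 (0.65) were called higher. Without CPTH2 replicate 3, COX5A (0.61), COX6 (0.59), COX7 (0.59) and COX13 (0.61) were called higher. That replicate was the lowest, with a mean complex IV subunit level relative to DMSO of 0.10, against 0.48 and 0.50 in replicates 1 and 2. Apart from these alternatives, the complex IV genes that were called are factors, COX20, a chaperone of Cox2 (0.96 ± 0.09, adjusted p = 3.67e-05, with part of the gene overlapped), and COX17, a copper chaperone (0.91 ± 0.10, adjusted p = 7.09e-05). ATP10, an assembly factor of the membrane part of ATP synthase, rose by 0.66 ± 0.10. Within a sample and relative to DMSO, the level of complex IV subunit genes minus that of complex II subunit genes was -0.42, -0.75 and -0.94 on the log2 scale in CPTH2, against -0.04, 0.05 and -0.01 in DMSO.

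Expression of scFv-58F went with small positive log2 fold changes in the subunit genes. Against DMSO 5 of the 54 genes were called higher and 2 lower, beside 1.97% of all tested genes called higher and 5.43% called lower. The changes were mostly below the fold cutoff: at an adjusted p below 0.05 alone, 38 of the 54 genes were higher and 4 lower, beside 23.6% and 25.5% of all tested genes. The median log2 fold change was 0.28, against -0.00 over all tested genes, and all 34 subunit genes had a positive value. Complex IV subunit genes had the largest median (0.48), and in all 10 every scFv-58F sample lay above every DMSO sample, which held for 26 of the 34 subunit genes and for 28.3% of all tested genes. The medians were 0.39 for complex III, 0.27 for complex II subunit genes and 0.20 for ATP synthase subunit genes. Without scFv-58F replicate 1 the medians of complex IV and complex III were close, at 0.38 and 0.36.

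The subunit genes called higher were all of complex IV. COX7 had 262, 232 and 254 CPM in scFv-58F, against 144, 136 and 161 CPM in DMSO (log2 fold change 0.76 ± 0.07, adjusted p = 2.18e-05). COX12 had 439.8, 384 and 395 CPM in scFv-58F, against 252, 242 and 268 CPM in DMSO (0.67 ± 0.07, adjusted p = 2.43e-05), and COX13 had 722, 651 and 665 CPM in scFv-58F, against 419.8, 422 and 461 CPM in DMSO (0.64 ± 0.06, adjusted p = 2.36e-05). The 3 samples of each group lay close together and well apart from the other group. COX5B had 429, 418 and 437 CPM in scFv-58F, against 274, 287 and 322 CPM in DMSO (0.54 ± 0.07, adjusted p = 9.53e-05, and 0.61 with a call without DMSO replicate 3), and COX5A 637, 524 and 524 CPM in scFv-58F, against 440.2, 438 and 504 CPM in DMSO (0.28 ± 0.09, adjusted p = 0.0194). The COX5B share of the pair was 40.5%, 44.7% and 45.8% in scFv-58F, against 38.6%, 39.9% and 39.3% in DMSO (exact permutation test, two-sided p = 0.1, the smallest possible).

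In the other complexes SDH6 and SDH8, both factors, were called higher at 0.80 ± 0.09 and 0.67 ± 0.05 (adjusted p = 4.33e-05 and 8.16e-06). SDH6 had 40.7, 36.3 and 36.9 CPM in scFv-58F, against 19.2, 21.5 and 24.4 CPM in DMSO. With scFv-645 SDH6 had 29.1, 30.1 and 26.6 CPM, also above every DMSO sample. SDH8 had 114, 117 and 95.8 CPM in scFv-645, which overlapped DMSO (99.3, 94.35 and 99.5 CPM). The largest changes of complex III and ATP synthase subunit genes were those of QCR10 (0.56 ± 0.07, called without scFv-58F replicate 2 at 0.60 or DMSO replicate 1 at 0.61) and ATP4 (0.41 ± 0.06), and QCR2 and QCR6 had 0.33 ± 0.08 and 0.24 ± 0.07. SDH1 (0.12 ± 0.13, adjusted p = 0.448), SDH2 (0.17 ± 0.09, adjusted p = 0.141), ATP1 (0.01 ± 0.09, adjusted p = 0.927) and ATP2 (0.19 ± 0.07, adjusted p = 0.0433), which rose in CPTH2, were not called, and neither was COX4 (0.25 ± 0.07). COX10 was called lower, with 11.2, 10.9 and 9.57 CPM in scFv-58F, against 17.8, 17.2 and 16.0 CPM in DMSO (-0.68 ± 0.09, adjusted p = 0.000149). ATP23, the protease and chaperone of Atp6, was called lower at -0.63 ± 0.14 (adjusted p = 0.00388), a call lost without scFv-58F replicate 3 (-0.57) or DMSO replicate 3 (-0.50). With scFv-645 ATP23 had a log2 fold change of -0.49 against DMSO, without a call. The COX13 call was lost with library size alone as scaling (0.58). With all 5 groups in 1 model, which takes its spread from the Curcumin samples too, 1 of the 54 genes was called in place of 7 (SDH8).

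With scFv-645, the unrelated intrabody, 1 of the 54 genes was called lower and 0 higher against DMSO, beside 2.7% and 1.32% of all tested genes. At an unadjusted p under 0.05, 4 of the 54 genes were higher, a threshold at which the share of all tested genes was not computed. With DESeq2 0 were called higher, beside 85 of the 6588 tested genes. At an adjusted p below 0.05 alone, 5 were lower and 2 higher, beside 12.2% and 10.7%. The median log2 fold change was -0.12 over the 54 genes and 0.00 over all tested genes, 28 of the 34 subunit genes had a negative value, and for 7 subunit genes every scFv-645 sample lay below every DMSO sample, which held for 20.3% of all tested genes. By complex, the subunit medians were -0.06 for complex IV, -0.07 for complex III, -0.18 for ATP synthase and -0.20 for complex II. Within a sample and relative to DMSO, complex IV minus ATP synthase subunit genes was 0.26, 0.20 and 0.09 in scFv-645. In scFv-58F that difference was 0.29, 0.24 and 0.28, so complex IV stood above ATP synthase in both intrabody strains. The gene called was COX10, with 8.72, 9.53 and 12.9 CPM in scFv-645, against 17.8, 17.2 and 16.0 CPM in DMSO (-0.72 ± 0.13, adjusted p = 0.00337), so that COX10 was called lower in both intrabody strains. Without scFv-645 replicate 3 or without DMSO replicate 1, 2 genes were called lower, COX10 and ATP23. ATP23 had -0.59 in both of these alternatives and -0.49 with all samples. With all groups in 1 model 0 genes were called. COX5B (307, 286 and 252 CPM in scFv-645, -0.07 ± 0.10) and COX5A (-0.15 ± 0.11), SDH1 (-0.22 ± 0.12), SDH2 (-0.21 ± 0.08), QCR2 (0.01 ± 0.09), QCR6 (-0.17 ± 0.09), COX4 (-0.16 ± 0.09), ATP1 (-0.20 ± 0.11) and ATP2 (-0.04 ± 0.11) were not called. Replicate 3 of scFv-645 was the lowest of its group in several complex IV genes, such as COX7 with 194, 179 and 143 CPM in scFv-645, against 144, 136 and 161 CPM in DMSO.

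Compared directly, the intrabody strains differed in these genes by a shift in 1 direction that seldom reached a fold of 1.5. In scFv-58F against scFv-645, 1 of the 54 genes was called higher and 0 lower, beside 0.668% and 2.13% of all tested genes, and at an adjusted p below 0.05 alone 36 were higher and 0 lower, beside 8.36% and 13.1%. At an unadjusted p under 0.05, 0 of the 54 genes were lower, a threshold at which the share of all tested genes was not computed. With DESeq2 3 were called higher and 0 lower, beside 57 and 106 of the 6588 tested genes. The median log2 fold change was 0.37, against -0.01 over all tested genes, all 34 subunit genes were positive, and in 30 of them every scFv-58F sample lay above every scFv-645 sample, which held for 17% of all tested genes. The medians were 0.50 for complex IV subunit genes, 0.50 for complex III, 0.40 for ATP synthase subunit genes, 0.34 for complex II subunit genes and 0.13 for the assembly genes. The gene called was COX5B, with 429, 418 and 437 CPM in scFv-58F, against 307, 286 and 252 CPM in scFv-645 (0.60 ± 0.09, adjusted p = 0.00122). This call sat near the fold cutoff and was lost without scFv-645 replicate 3 (0.53), with library size alone (0.54), with gene length corrected for (0.54) and with all groups in 1 model (0.60). The COX5B share of the isoform pair overlapped between the strains (exact permutation test, two-sided p = 0.3). It was 40.5%, 44.7% and 45.8% in scFv-58F, against 41.6%, 38.6% and 41.6% in scFv-645. The number of genes called was 7 without scFv-645 replicate 1, 5 without replicate 2 and 0 without replicate 3, and 2 and 3 without scFv-58F replicates 2 and 3. ATP18 (0.58), QCR10 (0.57) and COX9 (0.54) came next, of which ATP18 (0.60) and QCR10 (0.59) were called with DESeq2, and COX5A (0.42), COX4 (0.39), QCR6 (0.40), QCR2 (0.31), SDH2 (0.37), SDH1 (0.34), ATP2 (0.22) and ATP1 (0.20) followed. The scFv-58F and scFv-645 comparisons with DMSO use the same 3 DMSO samples, whereas this one does not use them.

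The 2 compounds differed in most of the genes. In Curcumin against CPTH2, 38 of the 54 genes were called lower and 6 higher, beside 23.6% and 26.7% of all tested genes, with a median log2 fold change of -1.39 against 0.06. All 10 complex IV subunit genes (median -2.06), 12 of 13 ATP synthase subunit genes (median -1.99), 5 of 6 complex III genes (median -1.55) and 3 of 5 complex II subunit genes (median -1.16) were lower. COX5B (-2.92 ± 0.34, adjusted p = 0.00114) and ATP17 (-2.53 ± 0.27, adjusted p = 0.000973) had the largest falls. ATP2 (-1.71 ± 0.30), COX4 (-1.44 ± 0.27), SDH2 (-1.16 ± 0.27) and COX5A (-1.66 ± 0.44, adjusted p = 0.0166) were called lower, COX5A no longer without Curcumin replicate 2 (-1.60) or CPTH2 replicates 1 (-1.66) or 2 (-1.53). COX10 (3.66 ± 0.73), SDH9 (2.68 ± 0.31), COX18 (1.30 ± 0.22), COX23 (1.25 ± 0.18), ATP12 (0.70 ± 0.18) and ATP22 (0.62 ± 0.20) were the genes called higher. The ATP12 call was lost without CPTH2 replicate 1 (0.62) or 3 (0.67), and that of ATP22 in 7 alternatives (0.31 to 0.71). ATP1 (-0.96 ± 0.44, adjusted p = 0.104), SDH1 (-0.74 ± 0.29, adjusted p = 0.0655) and QCR6 (-0.97 ± 0.37, adjusted p = 0.059) were not called, although without Curcumin replicate 3 all 3 were, at -1.57, -0.99 and -0.67, as they were with DESeq2 (-0.97, -0.76 and -0.98) and with all groups in 1 model (-0.96, -0.75 and -0.97). SDH1 was also called with gene length corrected for (-1.02), and QCR6 with a replicate block (-1.05) and without Curcumin replicate 1 (-1.21). QCR2 was called at -1.04 ± 0.37 (adjusted p = 0.0439), and lost the call without any of Curcumin replicates 1 (-0.93) and 2 (-0.80) or CPTH2 replicates 1 (-1.16), 2 (-0.90) and 3 (-1.06), with library size alone (-0.74), with a filter of 10 counts in every sample (-1.0) and with gene length corrected for (-0.94). The doses differed (200 and 400 µM), so the comparison is between these treatments and not between the compounds at a matched dose.

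Gene length moved with the fold changes. Most of the subunit genes are short, and SDH1, SDH9, ATP1 and ATP2 are those of more than 1500 bases. In Curcumin against DMSO the subunit genes of 300 bases or less had a median log2 fold change of -1.83 (11 genes) and those of 301 to 500 bases -1.51 (11 genes), beside -0.32 and -0.21 for all other genes of those lengths, while the subunit genes of more than 1500 bases had 0.44 (4 genes) beside 0.49. The correlation of log2 fold change with log2 length was Pearson r = 0.72 (Spearman rho 0.71) across the 34 subunit genes and r = 0.21 (rho 0.28) across 6534 other genes. These are descriptions across genes that share the same libraries. In CPTH2 the correlation across subunit genes was r = 0.73 (rho 0.61), and r = 0.15 (rho 0.18) across other genes, with medians of 0.38 in the shortest class and 1.15 in the longest. In scFv-58F against DMSO the correlation across subunit genes was r = -0.42 (rho -0.43), and -0.07 (rho -0.12) across other genes. In scFv-645 against DMSO it was r = 0.02 (rho -0.05), and 0.11 (rho 0.12) across other genes. In scFv-58F against scFv-645 it was r = -0.70 (rho -0.64), and -0.22 (rho -0.26) across other genes. With the trend on length taken out of each sample, 21 of the 54 genes were called lower and 5 higher in Curcumin than in DMSO, beside 22.5% and 25.2% of all tested genes, and all 26 were among the 34 called without the correction. In CPTH2 27 were higher and 0 lower, beside 14.8% and 14.4%, among them the 18 called without it. In scFv-58F 5 were higher and 2 lower, beside 1.75% and 5.36%, the same 7 genes as without it. The median of the ATP synthase subunit genes was then -1.25 in Curcumin and 0.61 in CPTH2. Length was not tested beyond this as a part of the results.

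**Figure D4:**
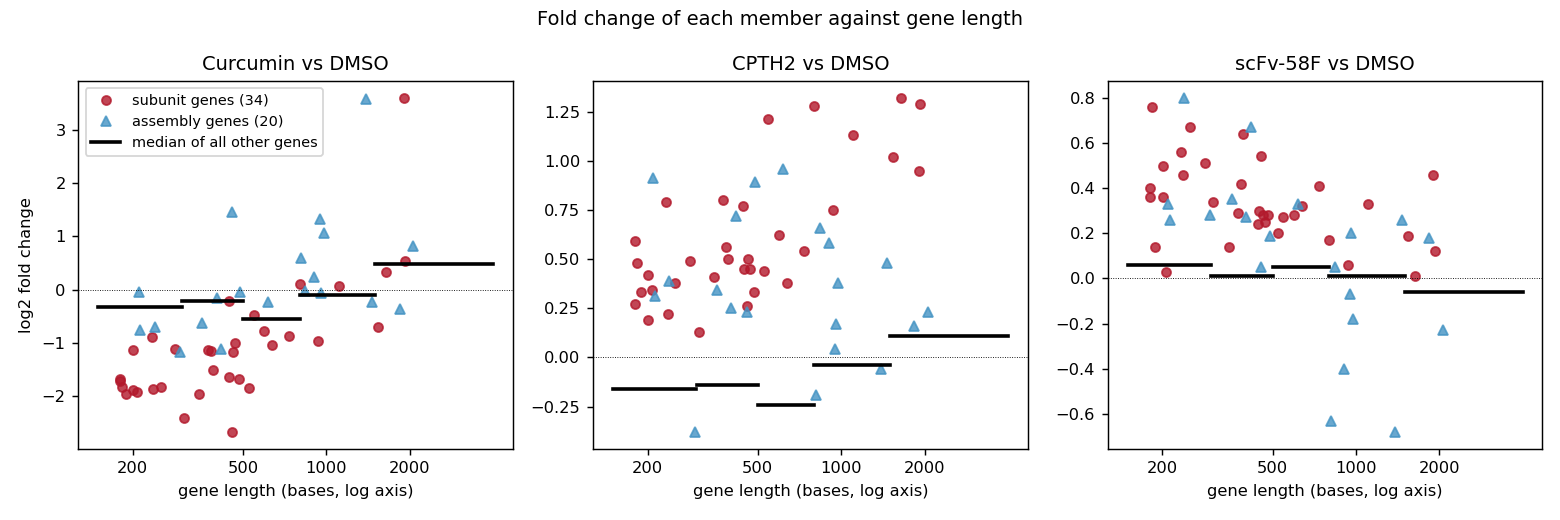
Log2 fold change of each of the 54 genes (circles, subunit genes, triangles, assembly genes) against gene length in bases (log axis) in 3 comparisons with DMSO, with the median of all other tested genes in 5 length classes (black lines). In Curcumin the short subunit genes lie well below the black lines (medians -1.83 and -1.51 against -0.32 and -0.21), and in CPTH2 the long ones lie furthest above them.

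Of 60 other nuclear genes of the pathway, 15 were called lower and 8 higher in Curcumin than in DMSO, beside 24.7% and 27.9% of all tested genes, so the count of lower genes was at the level of all genes. In CPTH2 21 were higher and 0 lower than in DMSO, beside 14.1% and 16.9% of all tested genes. Against DMSO 4 were higher and 2 lower in scFv-58F, beside 1.97% and 5.43%, and 0 were higher and 2 lower in scFv-645, beside 1.32% and 2.7%. The 3 complex III subunits that carry other names rose in CPTH2, CYT1 by 1.12, COR1 by 1.04 and RIP1 by 0.81 on the log2 scale, and so did the 3 NADH dehydrogenases NDE2 (1.91), NDI1 (1.29) and NDE1 (0.87, not called with all 5 groups in a single model). In Curcumin the ATP synthase inhibitor INH1 (-1.62), the dimer subunit TIM11 (-1.58) and the INH1 relative STF1 (-0.89) were called lower, as was SCO2, a copper factor of complex IV (-2.34). The TIM11 call was lost without Curcumin replicate 2 (-1.47) or DMSO replicate 3 (-1.48), and that of STF1 in 5 of the alternatives (-0.54 to -0.88). Neither translation and assembly genes nor coenzyme Q genes had a common direction in Curcumin. Of 19 complex IV assembly and translation genes 6 were called lower and 4 higher, and of 11 coenzyme Q genes 5 were lower and 1 higher. The 8 genes called higher were PET111 (1.84), PET309 (0.99), PET122 (0.89) and MSS51 (0.63), which act in the translation of mitochondrially encoded complex IV subunits, CBP1 (1.22), a factor for the mitochondrial COB messenger RNA, the heme lyases CYC3 (0.99) and CYT2 (0.71), and COQ1 (0.71), an enzyme of coenzyme Q synthesis. PET111 and CBP1 kept their calls in every alternative run, PET309 lost its call with gene length corrected for (0.44), and each of the other 5 lost it without at least 1 of the 6 samples, COQ1 at 0.51 without Curcumin replicate 3. STF1 and CYC7, the hypoxic isoform of cytochrome c, were the only ones of the 60 called in scFv-58F against scFv-645, at 0.75 ± 0.10 and 0.63 ± 0.09. CYC7 lost this call without scFv-58F replicate 1 (0.56), with library size alone as scaling (0.57) and with gene length corrected for (0.55). With all 5 groups in a single model CYC7 (0.64) and STF1 (0.76) both lost their calls. Against DMSO CYC7 was called higher in CPTH2 (0.63) and in scFv-58F (0.64), each call lost in some alternatives. In Curcumin CYC7 had 555, 335 and 182 CPM, against 680, 576 and 717 CPM in DMSO, without a call (-0.90). It was called lower there with DESeq2 (-0.89), with all 5 groups in a single model (-0.88) and without Curcumin replicate 1 (-1.34). CYC1, the main isoform, had 451, 185 and 62.8 CPM in Curcumin, against 383, 355 and 414 CPM in DMSO, and was called in scFv-58F against DMSO at 0.62 ± 0.10, but not without scFv-58F replicate 1 (0.48) or DMSO replicate 2 (0.56), with library size alone (0.56), with gene length corrected for (0.57) or with all 5 groups in a single model (0.62). With scFv-645 CYC1 had 524, 532 and 395 CPM, which overlapped both scFv-58F (692, 526 and 550 CPM) and DMSO. In Curcumin CYC1 was called lower without Curcumin replicate 1 (-1.62).

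HAP4 did not run in parallel with the subunit genes in every group. It had 597, 394 and 149 CPM in Curcumin, 485, 744 and 645 CPM in CPTH2, 254, 235 and 211 CPM in scFv-58F, 213, 229 and 270.3 CPM in scFv-645, and 364, 349 and 347 CPM in DMSO. It rose in CPTH2 (0.82 ± 0.15, adjusted p = 0.00116), a call lost with all 5 groups in a single model (0.82), and was called lower in scFv-58F (-0.60 ± 0.07, adjusted p = 5.02e-05), where all 34 subunit genes had positive values. The scFv-58F call was lost without replicate 3 of scFv-58F (-0.54), with gene length corrected for (-0.55) and with all 5 groups in a single model (-0.60). In scFv-645 it had -0.58 ± 0.09 (adjusted p = 0.00181), just short of the fold cutoff, and it was called without scFv-645 replicate 3 (-0.68), without DMSO replicate 2 (-0.59) or 3 (-0.59), with gene length corrected for (-0.59) and with a replicate block (-0.59). Between the intrabody strains it was not called (-0.03 ± 0.10, adjusted p = 0.866). ROX1, a repressor of hypoxic genes that include COX5B and CYC7, was called lower in scFv-58F (-0.83 ± 0.09) and in scFv-645 (-0.68 ± 0.08) and higher in CPTH2 (0.71 ± 0.14), each against DMSO. Its CPTH2 call was lost without CPTH2 replicate 2 (0.55), and both intrabody calls with all 5 groups in a single model (-0.82 and -0.67). In Curcumin ROX1 had 343, 328 and 148 CPM, against 160, 170 and 157 CPM in DMSO, with replicates 1 and 2 above and replicate 3 below all DMSO samples, and it was not called (0.74 ± 0.33, adjusted p = 0.0919). It was called higher without Curcumin replicate 3 (1.04), with library size alone as scaling (1.10) and with all 5 groups in a single model (0.75).

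The 7 mitochondrially encoded partners (COX1, COX2, COX3, COB, ATP6, ATP8 and OLI1) cannot be compared with the nuclear genes here, since the libraries were selected for poly(A) tails that yeast mitochondrial transcripts lack. Together they had 92, 73 and 475 counts in Curcumin, 49, 25 and 161 in CPTH2, 54, 61 and 87 in scFv-58F, 56, 36 and 67 in scFv-645, and 438, 37 and 45 in DMSO. Single libraries of 3 groups carried the highest counts, namely Curcumin replicate 3, CPTH2 replicate 3 and DMSO replicate 1. Curcumin replicate 3 also stood apart in ATP1, SDH6 and COX10. DMSO replicate 1 had 369 CPM of ATP1, against 309 and 330.5 CPM in the other DMSO samples. It had 19.2 CPM of SDH6, against 21.5 and 24.4 CPM, and 17.8 CPM of COX10, against 17.2 and 16.0 CPM. The part of such RNA in the values of these genes was not tested.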

How the data were processed

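Libraries (TruSeq Stranded mRNA) of 15 cultures were sequenced. The authors demultiplexed with bcl2fastq 1.8.4, trimmed with cutadapt, aligned to sacCer3 with segemehl and counted reads per gene with NGSutils without regard to strand, sharing reads of several positions. The deposited raw counts were used, and the deposited normalised columns were not. All 54 genes have the same coordinates in RefSeq R64. Counts were compared with edgeR 4.0.16 (R 4.3.3; quasi-likelihood test, TMM) on the 6 samples of each comparison, over 6588 genes that reached 10 counts in 3 or more of the 15 samples. Calls required a Benjamini-Hochberg adjusted p under 0.05 together with a 1.5-fold change or more. Scripts were tested on simulated data. Named genes are the called ones by size of change, up to 25, and COX5A, COX5B, SDH1, SDH2, QCR2, QCR6, COX4, ATP1, ATP2, HAP4, CYC1 and CYC7, while others named beside them were chosen after their values were seen. The genes and lists were chosen with earlier results of these data known. Alternatives were DESeq2 1.42.0 and its size factors, library size alone, other filters, a single model, a replicate block, no fold cutoff and each replicate left out, and a correction for gene length (lowess span 0.5), which was added after seeing the data. Library totals were 9062694 to 18878167 counts.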

Additional observations from a re-analysis of the deposited data

How the results depend on the processing

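None of the 54 genes and the further named genes changed direction with a call under any alternative run. Of 6384 alternative values of these genes, 6089 kept their side of the threshold, 173 lost the call and 122 gained it. These values leave out the alternative without a fold cutoff, and those that kept their side include genes called under neither setting. Without the fold cutoff 42 of the 54 genes were called in CPTH2 against DMSO (41 higher and 1 lower, beside 30.9% and 33.1% of all tested genes). For scFv-58F against DMSO the count was 42 (38 higher and 4 lower, beside 23.6% and 25.5%). For scFv-645 against DMSO it was 7 (2 higher and 5 lower, beside 10.7% and 12.2%). For scFv-58F against scFv-645 it was 36 (36 higher and 0 lower, beside 8.36% and 13.1%). With all 5 groups in a single model, 1 was called in scFv-58F against DMSO, 0 in scFv-645 against DMSO and 0 in scFv-58F against scFv-645. The last comparison gave 3 with the DESeq2 Wald test, 3 with DESeq2 size factors, 0 with library size alone and 0 with gene length corrected for, against 1. Of all 6588 tested genes, these settings called 57, 61, 27 and 30 higher and 106, 115, 205 and 116 lower, against 44 and 140. Leaving out each replicate gave 27 to 38 genes for Curcumin, 16 to 24 for CPTH2, 7 to 9 for scFv-58F and 1 to 2 for scFv-645 against DMSO, 0 to 7 for scFv-58F against scFv-645 and 36 to 48 for Curcumin against CPTH2. For the single model, the replicate block and the left-out replicates, the share of all tested genes called was not computed. Their counts, here and in the Results, therefore cannot be set against those of other genes. With library size alone, 2521 of all tested genes were higher and 1052 lower in Curcumin than in DMSO, against 1838 and 1629 with TMM, and 2401 higher and 1007 lower in Curcumin than in CPTH2, against 1760 and 1556.

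Fitting a replicate block gave 35 called genes in Curcumin, 19 in CPTH2, 7 in scFv-58F and 1 in scFv-645 against DMSO, 1 in scFv-58F against scFv-645 and 44 in Curcumin against CPTH2, against 34, 18, 7, 1, 1 and 44 without it. In Curcumin against DMSO the block added COX5A (-1.35) and QCR10 (-1.02) and took away ATP2 (-0.73), in CPTH2 against DMSO it added COX11 (0.59), and in Curcumin against CPTH2 it added QCR6 (-1.05) and COX19 (-0.84) and took away ATP10 (-0.68) and ATP22 (0.61). The labels do not say whether samples of the same number share a culture or a day. Their deviations correlated on average at 0.05, -0.19, 0.03, -0.04, -0.14 and 0.10 in these comparisons, and in Curcumin against CPTH2 each of 3 pairs correlated best with its own number, a hint from the data and not from the design.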
